A study of Mus musculus with 8 samples.

Results

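The genes described here are 57 regulators of embryonic patterning that carry a homeobox outside the Hox clusters, or a paired box. The rule reads names only. A gene was taken when the name of its probe in the MEF scanner file was Pax, Lhx, Dlx, Meis, Irx, Msx, Pitx, Emx, En or Otx with a single digit, a member of the numbered family of Six2, or Nkx followed by a digit. Pax6 was left out, and so were control probes. This gave 81 of the 41174 probes on the array and 57 of its 27670 genes. The families were Nkx with 11 genes, Lhx and Pax with 8 each, Irx and the family of Six2 with 6 each, Dlx with 5, Msx and Pitx with 3 each, Emx, En and Otx with 2 each, and Meis with 1. Members whose probe carries an older name in that file, such as Nkx2-1 and Nkx3-2, are outside it.

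Total RNA of 4 mouse cell populations was hybridised with Cy3 label to a 1-colour Agilent expression array, with 1 array per group. ES was an embryonic stem cell sample of 129/Ola background, labelled as blastocyst stage, and MEF was a sample of mouse embryonic fibroblasts. PM2i-iPSC was made from MEF given combinations with purmorphamine, an agonist of the Hedgehog pathway component Smoothened, and OM2i-iPSC from MEF given combinations with an oxysterol, a class in which some members also activate Smoothened. Both were then kept in 2i/LIF, a medium with inhibitors of MEK and GSK3 and the cytokine LIF. By its title the study set out to reprogram mouse somatic cells with chemicals. The sources used here do not give the other compounds of the combinations, the strain and age of the fibroblasts, or whether a preparation was a clone or a pool. The study's 4 Affymetrix arrays were not used here.

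With 1 array per group, no difference was tested and none has a replicate error. The only spread that could be measured was that between repeated spots of a probe on the same array, with a pooled SD of 0.190 in log2 units and 0.269 for the difference of 2 arrays. It leaves out the variation between cultures and RNA preparations. Throughout, a level is the log2 of the processed spot signal minus the log2 of the array's 75th percentile, so that a level of 0 is the 75th percentile and a step of 1 is 2-fold. A probe counts as detected when the scanner software called it well above background. Where the dimmer array did not detect a gene, its signal was raised to the lowest detected signal of that array and the fold is given as "at least". These lowest detected signals lay at a level of -6.85 on MEF, -5.13 on ES, and -4.59 on both PM2i-iPSC and OM2i-iPSC, so the MEF array could report fainter genes than the others. ES and PM2i-iPSC shared a slide, OM2i-iPSC was on another, and MEF was on yet another slide, scanned on another day with an older software version. Slide and group therefore cannot be told apart in any comparison with MEF or with OM2i-iPSC.

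The 4 arrays carried the markers of their labels. All 9 pluripotency markers were detected on ES, with levels from -2.18 to 4.71, and the 12 fibroblast markers on MEF read from -0.33 to 5.16. In ES, PM2i-iPSC and OM2i-iPSC, 11, 8 and 9 of the 12 fibroblast markers were still detected, and the median of their levels was 3.82 on MEF beside -2.21, -2.51 and -2.59. All 9 pluripotency markers were above background on MEF too, at levels from -6.66 to -0.48.

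A homeobox encodes a DNA-binding domain whose recognition helix lies in the major groove, and a paired box encodes a separate DNA-binding domain that some Pax proteins combine with a homeodomain. The embryo uses these genes to give cells a position and a lineage, with Otx and Emx in the forebrain, En and Pax genes at the border of midbrain and hindbrain, Nkx and Irx genes along the dorsoventral axis of the neural tube, Dlx, Msx and Pitx genes in face and limb, and genes related to sine oculis in muscle, kidney and sensory placodes. In embryonic stem cells many such genes lie in CpG-rich promoters that Polycomb complexes keep at low output, and fibroblasts retain part of the pattern of the body site they came from.

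The 3 probes that follow lie inside the DNA-binding domains themselves, and they are shown because they let the domain be seen that gives these families their name. In the Emx1 probe, capitals mark the part of the homeobox that encodes a conserved stretch of its recognition helix, found by a script on the probe's strand. In the other probes, capitals mark the 2 longest runs that the paired-box probes of Pax2 and Pax1 share, each of 8 bases. Coordinates are those of build mm7 in the file, and a span longer than the 60 bases of the probe means that the file places the probe over a wider interval. The 60-base Pax2 probe is placed over 59 bases. Its marked runs reach from base 5 to 40 and those of Pax1 from base 22 to 56, so their spacing differs.
Emx1, chr6:85223648-85233393, plus strand: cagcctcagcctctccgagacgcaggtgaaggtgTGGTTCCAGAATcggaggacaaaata
Pax2, chr19:44654758-44654816, plus strand: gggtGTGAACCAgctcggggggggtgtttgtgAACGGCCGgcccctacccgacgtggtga
Pax1, chr2:147106160-147106645, plus strand: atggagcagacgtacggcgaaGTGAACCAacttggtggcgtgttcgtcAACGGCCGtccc
The results below turn on a further set of probes, of which bases 16 to 45 are given in lower case with nothing marked. They are the probes of Otx2 and of Lhx1, 1 probe of a gene that was high on MEF (Dlx2), and the 3 probes of Irx2, which did not give the same picture.
Otx2, chr14:43989807-43989866, minus strand: tgatttgcaaatgattgatcaaatatattc
Lhx1, brightest probe, chr11:84589497-84589556, minus strand: ctcatctctgtcggtcaatggtggagccag
Lhx1, other probe, chr11:84588294-84588353, minus strand: tgtttacacgaggcaaaggaaaaaccatga
Dlx2, chr2:71387206-71387265, minus strand: ttatcttgtcctaaagtctttgttcttgaa
Irx2, brightest probe, chr13:69563624-69564285, plus strand: caaggtcagcagtgcaagtaggtgtcacaa
Irx2, nearer the start of the gene, chr13:69562330-69562389, plus strand: cgaatcaggctcagagtgtaaggacaagtt
Irx2, nearer its end, chr13:69564443-69564502, plus strand: tcatagtatagcttccctatgtttgtgtga

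Most of the 57 genes gave a signal in every cell population. Of the 57, 46 were detected on MEF (80.7%), 38 on ES (66.7%), 40 on OM2i-iPSC (70.2%) and 32 on PM2i-iPSC (56.1%). Over all genes of the array the shares were 73.5%, 68.5%, 69.0% and 65.9%. With the highest of the 4 floors used for every array, the counts on MEF, ES, OM2i-iPSC and PM2i-iPSC were 39, 36, 40 and 33 (68.4%, 63.2%, 70.2% and 57.9%), beside 61.0%, 67.1%, 70.1% and 67.8% of all genes. On MEF the share stayed above that of all genes and on PM2i-iPSC below it. Few of the genes were strong in any population: 11 on MEF, 8 on ES, 8 on PM2i-iPSC and 7 on OM2i-iPSC lay above the 75th percentile, where 28.8% to 30.2% of all genes lay.

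By pattern, 30 genes were detected on all 4 arrays and 10 on none. The 10 included the face and limb genes Dlx3 and Dlx4, the hindbrain and spinal cord genes En1, Pax3, Nkx2-2 and Nkx2-9, the heart gene Nkx2-5, the pancreas gene Pax4 and the eye gene Six6. The MEF value of Pax4 is missing because the scanner software flagged its single spot there as an outlier. Dlx1, Irx3, Lhx8, Lhx9, Msx2 and Pitx1 were detected on MEF only, and Otx2 was the 1 gene detected on every array but MEF. Pax9 and Nkx6-1 were detected on MEF and OM2i-iPSC, and Pax1 on MEF and PM2i-iPSC. The remaining 7, among them Dlx2, Irx5, Lhx2, Lhx5, Otx1 and Six2, were detected on all but PM2i-iPSC. Under the single floor, 26 genes were detected on all 4 arrays, and Otx1, Pax7, Pax8, Pitx3 and Six3 joined Otx2 among genes of the 3 pluripotent populations only. Msx2 was then detected on no array, and its levels on the 4 arrays lay within 2-fold of each other.

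**Figure D1:**
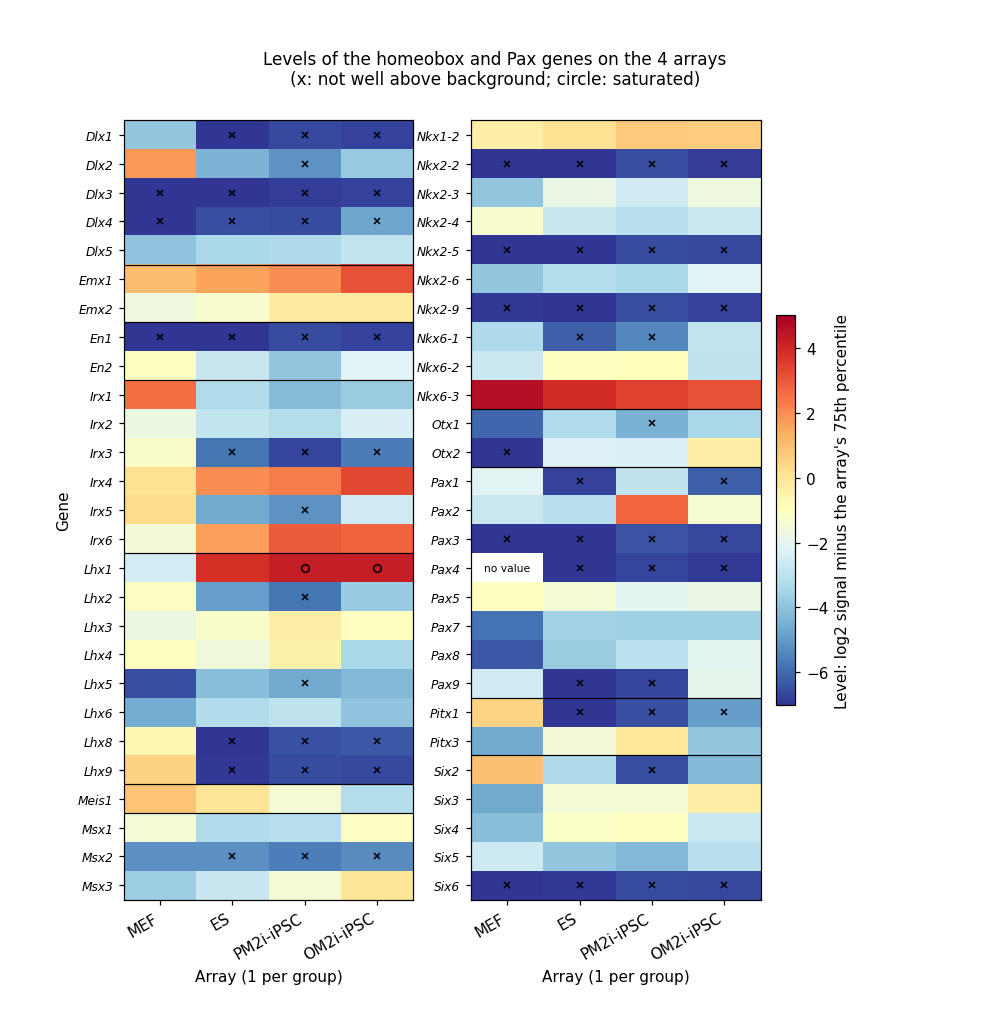
Level of 54 of the 57 genes (rows, grouped by family) on the MEF, ES, PM2i-iPSC and OM2i-iPSC arrays, as log2 signal minus the array's 75th percentile; a cross marks a gene not well above background and a circle a saturated probe. Dlx2, Irx1, Lhx9, Pitx1 and Six2 stand out on MEF, Lhx1, Irx6 and Otx2 are low there, and Pax2 is high on PM2i-iPSC only.

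The fibroblasts held a set of patterning genes that the 3 pluripotent populations had at far lower levels or not at all. By 2-fold or more, 18 of 46 genes lay below MEF in ES (all genes: 24.2%), 19 of 44 in PM2i-iPSC (all genes: 26.1%) and 15 of 46 in OM2i-iPSC (all genes: 25.2%). Above MEF by that margin were 15 in ES (all genes: 36.4%), 17 in PM2i-iPSC (all genes: 37.7%) and 19 in OM2i-iPSC (all genes: 40.2%). As percentages of the genes compared, 39.1%, 43.2% and 32.6% were lower and 32.6%, 38.6% and 41.3% higher, so the lower shares were above those of all genes and the higher shares near them. The median difference of the members was 0.02, -0.32 and 0.52, beside 0.29, 0.28 and 0.40 over all genes. When each array was scaled to its median in place of its 75th percentile, differences from MEF dropped by 0.56, 0.63 and 0.75, and the splits became 13 higher and 22 lower for ES and for PM2i-iPSC and 13 and 20 for OM2i-iPSC. All genes then divided into 27.2% higher and 34.3% lower for ES, 28.1% and 36.9% for PM2i-iPSC, and 29.3% and 37.7% for OM2i-iPSC. The 3 comparisons share the MEF array.

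Dlx2, a gene of forebrain interneurons and of the branchial arches, read 1.81 on MEF, -4.39 on ES, -5.15 on PM2i-iPSC and -3.79 on OM2i-iPSC. It was 73.5-fold lower in ES and 48.4-fold lower in OM2i-iPSC than in MEF. The bound for PM2i-iPSC, where it was not detected, was 84.2-fold. Irx1, which patterns the neural tube and the limb, read 2.56 on MEF and -3.26, -4.16 and -3.74 on ES, PM2i-iPSC and OM2i-iPSC. That is 56.5-fold, 105.5-fold and 78.8-fold lower than in MEF. The file places this Irx1 probe over 40 bases. The other Irx1 probe was detected on MEF only, at -6.10, and gave no fold in any comparison. Undetected on the other arrays, it read -7.15 on ES, -4.52 on PM2i-iPSC and -6.90 on OM2i-iPSC. The Irx1 folds thus rest on 1 of 2 probes. By the probes that gave the folds, MEF stood far above the 3 pluripotent arrays for both genes.

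Lhx9, a LIM-homeobox gene of the limb, gonad and forebrain, read 0.50 on MEF and between -6.94 and -6.54 on the other arrays, none of them above background. The fold was at least 49.7 for ES and 34.1 for each reprogrammed preparation, and the second Lhx9 probe gave the same detection calls. Pitx1, which gives the hindlimb its identity, read 0.45 on MEF and -7.14, -6.50 and -4.94 on ES, PM2i-iPSC and OM2i-iPSC, with bounds of at least 48.1-fold, 33.0-fold and 33.0-fold. The skeletal and kidney progenitor gene Six2 read 0.94 on MEF and -3.34, -6.50 and -4.24 on the same 3 arrays. Lhx8, a forebrain and tooth gene, read -0.68 on MEF and from -7.15 to -6.33 elsewhere, although its other probe was detected on no array.

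Lhx2, a gene of eye field, limb and hair follicle, read -1.06 on MEF and -4.86, -5.77 and -3.79 on ES, PM2i-iPSC and OM2i-iPSC. The neural tube gene Irx3 read -1.22 on MEF and was not detected elsewhere, with a bound on the log2 difference of ES from MEF of -3.91. Meis1, a cofactor of Hox proteins that limb and blood progenitors express, read 0.85 on MEF, 0.00 on ES, -1.44 on PM2i-iPSC and -3.19 on OM2i-iPSC. It was the member furthest below ES in OM2i-iPSC, by 9.13-fold, while ES and MEF were within 2-fold of each other. Its second probe was detected on MEF and ES and on neither reprogrammed preparation.

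A list of genes of limb, skeleton and face mesenchyme lay mostly on the MEF side. Of its 12 genes on the array, 8 had a fold against MEF. In ES and in PM2i-iPSC 6 were at least 2-fold lower and none higher, with medians of -2.62 and -2.17, and in OM2i-iPSC 5 were lower and 1 higher, with a median of -2.41. Under scaling to the median 9 had a fold and the splits were 7 lower and none higher in ES and PM2i-iPSC, and 5 and none in OM2i-iPSC. The list also holds Nkx3-2 (not among the 57 genes), which was detected on MEF only, where the floor was lowest. Its level there was -6.58, below the undetected -5.03, -5.39 and -5.59 on ES, PM2i-iPSC and OM2i-iPSC. No direction can be given for it. In bulk RNA, fewer cells of a type and less RNA per cell cannot be told apart.

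The MEF and pluripotent arrays also divided families and even neighbours on a chromosome. Irx1, Irx2 and Irx4 are neighbours on chromosome 13, and Irx4, a gene of the heart ventricle, read 0.11 on MEF and 1.96, 2.32 and 3.28 on ES, PM2i-iPSC and OM2i-iPSC, opposite to Irx1. On chromosome 8, Irx5 read 0.29 on MEF and -4.63, -5.16 and -2.59 elsewhere, and its neighbour Irx6 read -1.52 on MEF and 1.64, 2.94 and 2.75. Over MEF, Irx6 had folds of 8.93, 22.0 and 19.4 on those arrays, while Irx5 was 30.3-fold below MEF in ES, 29.5-fold or more in PM2i-iPSC and 7.39-fold in OM2i-iPSC. By the brightest probes, each Iroquois cluster held at least 1 gene high in MEF and 1 higher in the pluripotent populations. This was so in all 3 comparisons.

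The relatives of sine oculis divided in the same way. Six2, on chromosome 17, was 19.4-fold lower in ES than in MEF, and its neighbour Six3, which defines eye and anterior forebrain, read -4.65 on MEF and -1.49, -1.38 and -0.33 on ES, PM2i-iPSC and OM2i-iPSC. Its folds over MEF were 8.92, 9.62 and 20.0. The other Six3 probe was detected on OM2i-iPSC only, at -2.73. On chromosome 12, Six4 read -4.10 on MEF and -1.14, -1.04 and -2.69 elsewhere, and Six6 was detected on none. Dlx1 and Dlx2 on chromosome 2 were both higher on MEF, Dlx1 at -3.88 there and not detected elsewhere. Dlx5, a gene of bone and face, read from -3.98 to -2.86 on the 4 arrays.

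**Figure D2:**
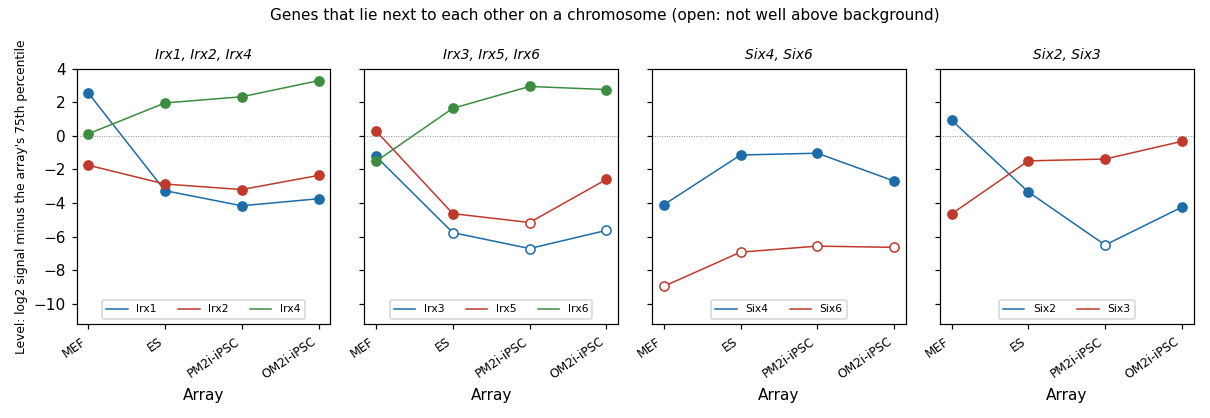
Level (log2 signal minus the array's 75th percentile) of neighbouring Irx genes and of Six2, Six3, Six4 and Six6 on each array, with lines joining the values of a gene and open points marking genes not well above background. Irx1 and Irx5 are high on MEF where Irx4 and Irx6 are lower than on the other arrays, Six2 and Six3 cross, and Six6 is open on all 4 arrays.

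Several brain and neural tube genes lay on the pluripotent side. Otx2, which shapes the anterior brain and is also active in the epiblast and in pluripotent cells, read -8.95 on MEF, -2.26 on ES, -2.31 on PM2i-iPSC and -0.41 on OM2i-iPSC. Its 10 spots on MEF ranged from -9.15 to -8.84 with none above background, and the spots used on the other arrays ranged from -2.52 to -2.04 on ES, -2.94 to -2.04 on PM2i-iPSC and -0.64 to -0.27 on OM2i-iPSC. The spots of ES and PM2i-iPSC overlapped, and those of OM2i-iPSC lay above both. Against MEF the fold was at least 24.1 in ES, at least 23.3 in PM2i-iPSC and at least 86.6 in OM2i-iPSC, and OM2i-iPSC was 3.59-fold above ES.

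Lhx1, a LIM-homeobox gene of the gastrula organiser, kidney and spinal cord, read -2.48 on MEF, 3.79 on ES, 4.21 on PM2i-iPSC and 4.25 on OM2i-iPSC. Every spot used on PM2i-iPSC and OM2i-iPSC was saturated, so their folds over MEF are bounds of at least 103.7 and 106.3, beside 77.5 for ES. The 10 spots on ES ranged from 3.29 to 4.10 and those on MEF from -2.69 to -2.35. The other Lhx1 probe, on the same chromosome, was above background on none of the 4 arrays, with levels of -8.96, -5.31, -6.67 and -6.78 on MEF, ES, PM2i-iPSC and OM2i-iPSC. The probes thus gave opposite detection calls on every array, and the Lhx1 values rest on 1 of them.

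Otx1, of the forebrain, read -6.04 on MEF, -3.28 on ES, -4.43 on PM2i-iPSC and -3.36 on OM2i-iPSC, and was not detected on PM2i-iPSC. Pax8, of thyroid and kidney, read -6.31 on MEF and -3.76, -2.98 and -2.07 on ES, PM2i-iPSC and OM2i-iPSC. The midbrain dopamine and lens gene Pitx3 read -4.62 on MEF, -1.53 on ES, -0.13 on PM2i-iPSC and -3.86 on OM2i-iPSC. Otx1 and Pax8 were at least 4-fold higher in ES than in MEF, and Pitx3 was 8.57-fold higher in ES but 1.69-fold higher in OM2i-iPSC. Msx3, a gene of the dorsal neural tube, read -3.68, -2.77, -1.44 and -0.06 on MEF, ES, PM2i-iPSC and OM2i-iPSC. Otx1, Pax8 and Msx3 each had another probe that was detected on no array, so their values rest on 1 of 2 probes.

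The forebrain and eye list, 13 genes with Nkx2-1 included, had 4 genes higher and 5 lower in ES than in MEF, 4 and 4 in PM2i-iPSC, and 5 and 4 in OM2i-iPSC. The list for midbrain, hindbrain and spinal cord, with 18 genes, had 5 and 5, 6 and 6, and 5 and 4. Over all genes 36.4%, 37.7% and 40.2% were at least 2-fold higher and 24.2%, 26.1% and 25.2% lower on these arrays. The medians of the first list against MEF were 0.41, 0.11 and 0.59 at the 75th percentile and -0.15, -0.52 and -0.15 when scaled to the median, so their sign depended on the scaling. Those of the second list were -0.41, 0.49 and 0.11 at the 75th percentile and -0.97, -0.13 and -0.64 when scaled to the median. The second list was thus below 0 in ES under both scalings, and also at -0.74 under quantile normalization, with as many genes higher as lower at the 75th percentile. Of 10 neural markers, Dcx and Olig2 were not detected on any pluripotent array, and of the 9 with a fold against MEF 5, 5 and 4 were lower and 2, 1 and 2 higher on the ES, PM2i-iPSC and OM2i-iPSC arrays. The log2 of their summed level was 1.89 on MEF and 0.43, 0.16 and 0.77 on ES, PM2i-iPSC and OM2i-iPSC.

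Other members lay on both sides of MEF. Nkx6-3, a gene of stomach and brain, read 4.61 on MEF and 3.89, 3.45 and 3.12 on ES, PM2i-iPSC and OM2i-iPSC. Emx1, of the cerebral cortex, read 1.05, 1.54, 1.97 and 3.08 on MEF, ES, PM2i-iPSC and OM2i-iPSC, and Nkx1-2, of the posterior neural plate, -0.36, 0.10, 0.70 and 0.68. Of the other Nkx1-2 probes, 1 was detected on MEF and ES and 1 on no array. Lhx3, of motor neurons and pituitary, read -1.77, -1.23, -0.31 and -0.98 on MEF, ES, PM2i-iPSC and OM2i-iPSC. Lhx4, of the same tissues, read -0.97 on MEF and -1.58 on ES and was 5.39-fold below MEF in OM2i-iPSC, but 1.41-fold above it in PM2i-iPSC. En2, of midbrain and cerebellum, read -1.03 on MEF, -2.77 on ES, -3.92 on PM2i-iPSC and -2.16 on OM2i-iPSC, and its spots on the 4 arrays did not overlap. It was 3.34-fold, 7.44-fold and 2.19-fold below MEF on the 3 pluripotent arrays.

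The gut and spleen gene Nkx2-3 read -3.93 on MEF, -1.81 on ES, -2.55 on PM2i-iPSC and -1.62 on OM2i-iPSC, which is 4.34-fold, 2.60-fold and 4.94-fold above MEF. The hypothalamus and thyroid gene Nkx2-4 read -1.30 on MEF and from -3.05 to -2.73 elsewhere, and Six5, whose locus lies beside the myotonic dystrophy kinase gene, read -2.62 on MEF and -3.94, -4.26 and -3.03 on ES, PM2i-iPSC and OM2i-iPSC. Nkx2-4 was 2.70-fold, 3.35-fold and 2.69-fold below MEF in ES, PM2i-iPSC and OM2i-iPSC, by 1 of 2 probes, since the other was detected on no array. Six5 was also highest on MEF, though within 2-fold of it in OM2i-iPSC.

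PM2i-iPSC was within 2-fold of ES for most of the genes that could be compared, and Pax2 differed most. Of 37 genes with a fold, 24 were within 2-fold of ES, 7 were higher (all genes: 14.6%) and 6 lower (all genes: 11.7%), which is 18.9% and 16.2%. Both shares were near those of all genes, and 20 of the 57 genes had no fold. The median difference was 0.08 for the members and -0.04 for all genes. At 4-fold, 2 genes were higher (all genes: 3.92%) and none lower (all genes: 2.33%).

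Pax2, which builds the kidney, the optic nerve and the border of midbrain and hindbrain, read -2.70 on MEF, -3.14 on ES, 2.71 on PM2i-iPSC and -1.34 on OM2i-iPSC. The 10 spots on PM2i-iPSC ranged from 2.58 to 2.81, those on ES from -3.56 to -2.83, on MEF from -2.84 to -2.52 and on OM2i-iPSC from -1.52 to -1.11. Only the spots of MEF and ES overlapped. Pax2 was 57.8-fold higher in PM2i-iPSC than in ES, 42.5-fold higher than in MEF and 16.6-fold higher than in OM2i-iPSC, and OM2i-iPSC was 3.48-fold above ES.

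The value rests on 1 probe, the paired-box sequence shown above, with 68.3% GC and a run of 8 G that no other probe of the array has. That probe is placed over 59 bases rather than its 60, and whether it matches the transcript in full was not checked. Among the 147 probes of at least 65% GC with a difference between PM2i-iPSC and ES, the median difference was -0.01, and 1 of them, the Pax2 probe, was at least 32-fold higher in PM2i-iPSC. Genes of the mesoderm and kidney list were measured beside it. Of 8, T and Mesp1 were not detected on any array and Wt1 and Gata3 not on PM2i-iPSC. Of 6 with a fold, 3 were higher and 1 lower in PM2i-iPSC than in ES (all genes: 14.6% and 11.7%). The log2 of their summed level was 1.38 on MEF, -0.76 on ES, 0.22 on PM2i-iPSC and 0.15 on OM2i-iPSC. Their part in the Pax2 result was not tested. The RefSeq table gave 3 promoters for Pax2, with 5, 20 and 25 CpG in their 250 bases.

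Pax1, a gene of the sclerotome and thymus, was the other gene more than 4-fold above ES. It read -2.09 on MEF, -6.72 on ES, -2.90 on PM2i-iPSC and -6.16 on OM2i-iPSC, with all spots used on MEF and PM2i-iPSC above background and none on the other arrays. PM2i-iPSC was at least 4.70-fold above ES and 1.76-fold below MEF. The paired-box probe of Pax1 was detected on MEF and OM2i-iPSC in place of MEF and PM2i-iPSC, at -4.65 and -4.04, so the 2 probes did not name the same preparation. Fibroblast markers on PM2i-iPSC had a log2 summed level of 2.83, below ES at 3.48, and MEF had 7.49. Of 11 with a fold, 4 were at least 2-fold lower than in ES and 2 higher (all genes: 11.7% and 14.6%). The higher ones were Pdgfrb at 1.03 against -1.86 on ES and Col3a1 at -1.46 against -2.60. Their part in the Pax1 result was not tested.

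The other genes at least 2-fold above ES in PM2i-iPSC were Pitx3 at 2.63-fold, Msx3 at 2.52-fold, Irx6 at 2.46-fold, Lhx4 at 2.15-fold and Emx2 at 2.06-fold. The other Emx2 probe went the other way, detected on ES at -4.15 and not detected on PM2i-iPSC at -4.97. Those at least 2-fold below ES included Meis1 at 2.71-fold, Six2 at a bound of 2.37-fold, En2 at 2.23-fold and Otx1 at a bound of 2.21-fold. With a normexp background correction, 2 in place of 6 were lower and 8 higher, of 39 with a fold. Over all genes 9.90% were then lower and 12.6% higher.

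**Figure D3:**
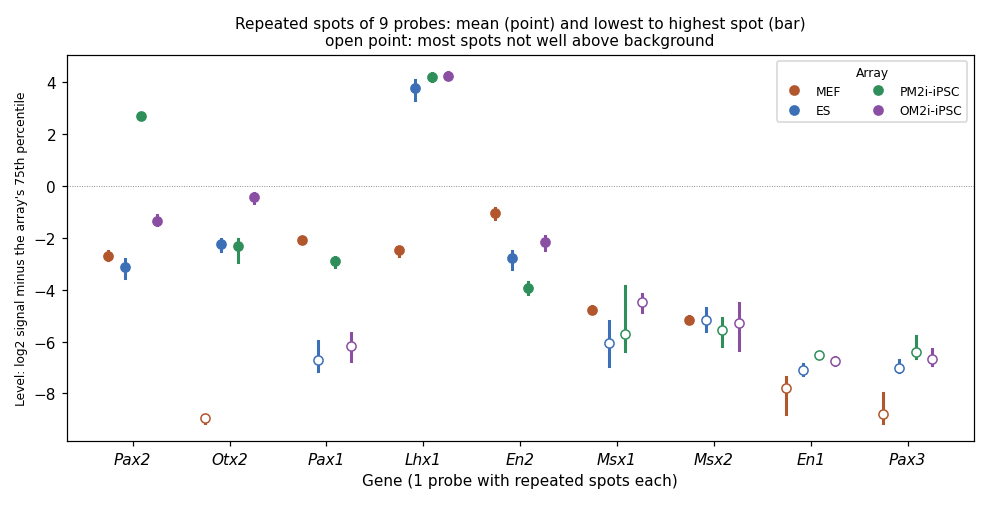
Mean level (point) and lowest to highest spot (bar) of the 9 probes with repeated spots, on the 4 arrays, as log2 signal minus the array's 75th percentile; an open point means that most spots were not well above background. Pax2 on PM2i-iPSC, Otx2 on OM2i-iPSC and the open Otx2 point on MEF lie outside the spot ranges of the other arrays; the Msx1 probe plotted here is the dimmer of 2.

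OM2i-iPSC departed from ES more than PM2i-iPSC did in these genes, and mostly upward. Among 40 genes with a fold, 16 were higher by 2-fold or more (all genes: 21.6%) and 5 lower (all genes: 13.7%), which is 40% and 12.5%, and 19 were within 2-fold. The median difference was 0.55 for the members and 0.06 for all genes. Scaled to the median, 11 were higher and 6 lower with a member median of 0.36, beside 17.5% higher and 17.9% lower among all genes. The arrays were scanned on 1 day but sat on separate slides.

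Pax9, of the sclerotome, pharyngeal pouches and teeth, read -2.53 on MEF, -7.37 on ES, -6.69 on PM2i-iPSC and -1.98 on OM2i-iPSC, and was at least 8.89-fold above ES. It was high on MEF and OM2i-iPSC and not detected on the other arrays.

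Msx3 was 6.56-fold, Msx1, of limb, tooth and neural crest, 4.63-fold and Irx5 4.10-fold above ES in OM2i-iPSC. Msx1 read -1.50 on MEF, -3.28 on ES, -3.14 on PM2i-iPSC and -1.06 on OM2i-iPSC, so MEF and OM2i-iPSC were high and the other 2 low. Its other probe, with 10 spots, was called above background on MEF only, at -4.77. On OM2i-iPSC that probe read -4.47, with 4 of 9 spots used above background. Undetected on ES and PM2i-iPSC, it read -6.06 and -5.69 there, so the order of the arrays was that of the brightest probe. The Msx1 and Msx3 folds over ES each rest on 1 of 2 probes. Nkx6-1, of motor neuron progenitors and beta cells, read -3.33 on MEF and -2.83 on OM2i-iPSC, was not detected on the other 2 arrays and was at least 4.92-fold above ES. Pax9, Nkx6-1 and Msx1 had in common that OM2i-iPSC and MEF lay within 2-fold of each other while ES lay below both. The log2 summed level of the fibroblast markers was 2.92 on OM2i-iPSC, 3.48 on ES and 7.49 on MEF, and Dcn, Lum and Postn were not detected on OM2i-iPSC. Against ES, 5 of 11 fibroblast markers with a fold were at least 2-fold lower and 2 higher (all genes: 13.7% and 21.6%). The higher ones were Pdgfrb at 0.52 on OM2i-iPSC and Col3a1 at -0.47. Whether the fibroblast markers had a part in the values of Pax9, Nkx6-1 and Msx1 was not tested.

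Emx1 was 2.91-fold, Irx4 2.51-fold, Six3 2.24-fold and Irx6 2.17-fold above ES. Of the trophoblast markers, 3 of 6 with a fold were higher than ES in OM2i-iPSC by 2-fold or more and none lower. Cdx2, a caudal homeobox gene that the naming rule leaves out, read 0.43 on OM2i-iPSC and -3.05 on ES. Elf5 and Plac1 of that list were not detected on OM2i-iPSC. Muscle and heart markers were higher for 3 of 6 with a fold, and the skeletal muscle gene Myf5 was not detected. Endoderm markers were higher for 1 of 4, with Foxa2, Afp and Ttr not detected. Over all genes 21.6% were higher and 13.7% lower than ES in OM2i-iPSC, and the difference of these short lists from those shares was not tested. The log2 summed levels on OM2i-iPSC and ES were 3.94 and 4.26 for the trophoblast list, 2.51 and 1.74 for muscle and heart, and 4.35 and 4.56 for endoderm. Their part in the differences of the homeobox genes was not tested.

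The genes below ES in OM2i-iPSC were Meis1, Pitx3 at 5.06-fold, Nkx6-2, of oligodendrocytes, at 3.79-fold, Lhx4 at 3.53-fold and Six4 at 2.93-fold. Nkx6-2 read -2.67 on MEF, -1.02 on ES, -0.94 on PM2i-iPSC and -2.94 on OM2i-iPSC, and Lhx4 read -0.97, -1.58, -0.47 and -3.40 in the same order. For both genes OM2i-iPSC was the lowest array and PM2i-iPSC the highest, though close to ES for Nkx6-2.

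Set directly against each other, the 2 preparations differed in 21 of 40 genes by at least 2-fold. PM2i-iPSC was higher in 8 (all genes: 12.5%) and lower in 13 (all genes: 17.6%), which is 20.0% and 32.5%, with a median of -0.52 for the members and -0.10 for all genes. Scaled to the median, 8 were higher and 10 lower, beside 14.7% higher and 14.8% lower among all genes.

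Higher in PM2i-iPSC were Pax2 at 16.6-fold, Pitx3 at 13.3-fold, Lhx4 at 7.59-fold, Nkx6-2 at 4.00-fold, Meis1 at 3.36-fold, Pax1 at a bound of 3.23-fold, Six4 at 3.15-fold and Lhx6, of cortical interneurons, at 2.07-fold. Among those higher in OM2i-iPSC were Pax9 at a bound of 6.10-fold, Msx1 at 4.21-fold, Irx5 at a bound of 3.99-fold, Otx2 at 3.72-fold, En2 at 3.39-fold and Nkx6-1 at a bound of 3.38-fold, followed by 6 genes between 2.07-fold and 2.61-fold. The 3 Pax genes past 2-fold here did not share a direction.

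**Figure D4:**
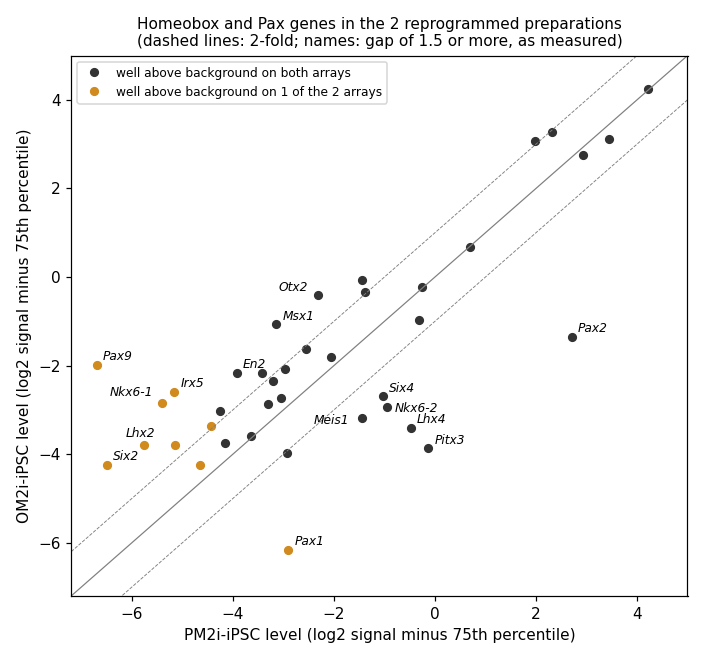
Level of the genes named here that were detected in at least 1 of the 2 preparations, PM2i-iPSC on the horizontal and OM2i-iPSC on the vertical axis (log2 signal minus the array's 75th percentile), with the line of equality and dashed lines at 2-fold. Pax2 lies far to the right of the lines, Pax9 far to the left, and of the genes above 0 on both axes only Emx1 lies just past 2-fold.

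Genes for partner proteins of these factors divided about evenly between MEF and the pluripotent arrays at the 75th percentile. Scaled to the median they leaned to MEF, as all genes did. Of 26 cofactor genes in a list, all were detected on MEF, 23 on ES, 19 on PM2i-iPSC and 23 on OM2i-iPSC. Against MEF, 9 were higher and 9 lower of 25 in ES (all genes: 36.4% and 24.2%), 9 and 10 of 24 in PM2i-iPSC (all genes: 37.7% and 26.1%) and 11 and 9 of 25 in OM2i-iPSC (all genes: 40.2% and 25.2%), with medians of 0.06, -0.20 and 0.20. Scaled to the median the splits were 5 and 10 in each case. All genes then had 27.2% higher and 34.3% lower for ES, 28.1% and 36.9% for PM2i-iPSC, and 29.3% and 37.7% for OM2i-iPSC. Lmo1, which competes with LIM-homeodomain proteins for the adaptor Ldb, read 1.43 on MEF and -3.91, -4.99 and -2.26 on ES, PM2i-iPSC and OM2i-iPSC. Dach1, a corepressor that acts with Eya proteins, read -0.05 on MEF and -6.39, -5.20 and -3.15. Both were high on MEF only.

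Eya1, a phosphatase that activates transcription with homeodomain partners, read -3.98 on MEF, -0.58 on ES, -0.07 on PM2i-iPSC and -2.01 on OM2i-iPSC. Eya3 of the same family read -3.73, -0.73, -1.54 and 2.11, so that Eya1 was 3.84-fold higher and Eya3 12.5-fold lower in PM2i-iPSC than in OM2i-iPSC. Eya1 and Eya3 were both higher in ES than in MEF. Pknox2, a relative of the Meis proteins that pairs with Pbx, read -5.71 on MEF, -1.40 on ES, -2.39 on PM2i-iPSC and -4.30 on OM2i-iPSC. The Groucho corepressor Tle2 read 0.04, -1.13, -1.81 and -3.45 in the same order, and OM2i-iPSC stood 8.54-fold above MEF for Pbx4. In PM2i-iPSC against ES the widest were Lmo4 at 3.62-fold and Ssbp2 at 3.23-fold lower, Lmo3 at a bound of 2.65-fold higher and Eya1 at 1.43-fold higher.

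Where a gene had several probes, they often gave different answers. Of the 21 such genes, 3 had the same detection calls on all probes and 7 had a probe detected on no array beside one that was detected (Lhx1, Lhx8, Msx3, Nkx1-2, Nkx2-4, Otx1 and Pax8). The probes were at least 2-fold apart in opposite directions for Irx2 in ES against MEF, for Emx2 and Pax5 in PM2i-iPSC against MEF, for Emx2 and Irx2 in OM2i-iPSC against MEF, and for Nkx2-6 in PM2i-iPSC against OM2i-iPSC.

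For Irx2, shown above by sequence, the brightest probe read -1.75 on MEF, -2.87 on ES, -3.20 on PM2i-iPSC and -2.35 on OM2i-iPSC. The probe nearer the start of the gene read -5.23, -3.08, -4.30 and -1.40, lowest on MEF, and the probe nearer the end read -0.64, -4.85, -6.47 and -3.32, highest on MEF. The log2 difference of ES from MEF thus ran from -4.21 to 2.15 over the 3 probes, and no direction can be given for Irx2.

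For Emx2, of the dorsal forebrain and urogenital system, the brightest probe read -1.70 on MEF and -1.29, -0.25 and -0.23 on ES, PM2i-iPSC and OM2i-iPSC, while the other probe, further along the chromosome, read 0.74 on MEF and -4.15, -4.97 and -5.04. For Pax5, of B cells and midbrain, the brightest probe read -1.01, -1.39, -2.06 and -1.82 on MEF, ES, PM2i-iPSC and OM2i-iPSC, and the other was detected on PM2i-iPSC and OM2i-iPSC only, at -3.04 and -4.08. For Nkx2-6, of pharynx and heart, the dimmer probe read -1.98 on PM2i-iPSC and -5.54 on MEF and was not detected on the other 2, while the brightest probe read -3.87, -3.20, -3.43 and -2.16 on MEF, ES, PM2i-iPSC and OM2i-iPSC. The direction of Emx2, Pax5 and Nkx2-6 in the comparisons named above depended on which probe was read. Lhx6 was another case, with -4.57, -3.22, -2.93 and -3.98 by the brightest probe and -7.60, -2.54, -5.47 and -3.71 by the other.

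**Figure D5:**
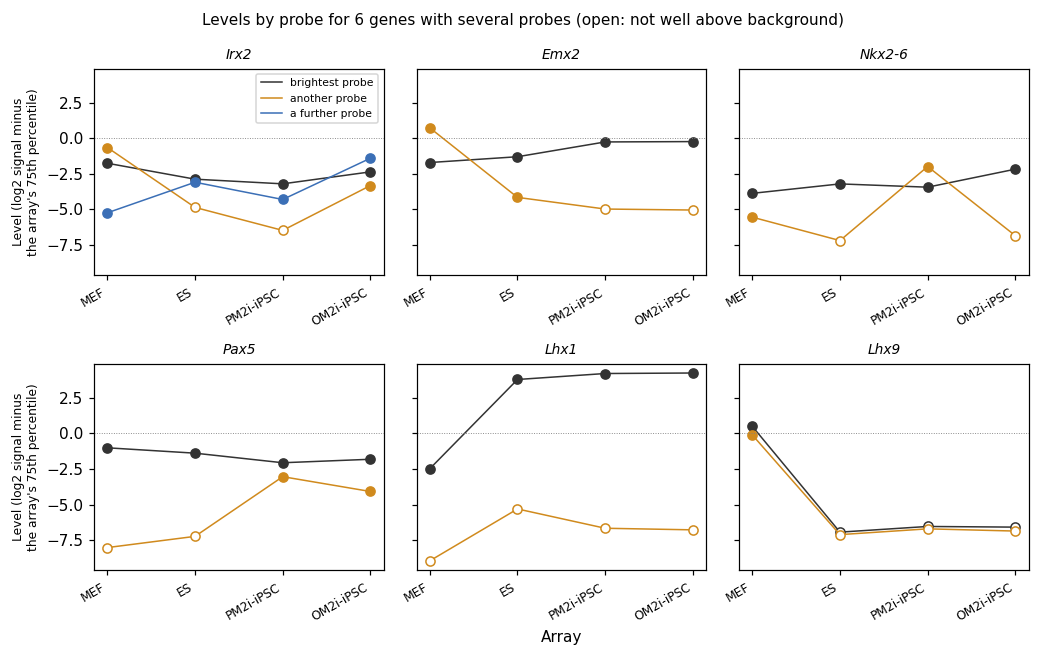
Level by array (log2 signal minus the array's 75th percentile) for each probe of 6 genes with several probes, with open points for probes not well above background. Both probes of Lhx9 are above background on MEF only, those of Irx2 and Emx2 cross between MEF and ES, and the second probe of Lhx1 is open on all 4 arrays.

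Level and base composition of the probes were related. Over the 81 probes of these genes, GC content and level had a Spearman correlation of 0.22 on MEF, 0.39 on ES, 0.49 on PM2i-iPSC and 0.43 on OM2i-iPSC, and over all probes 0.23, 0.26, 0.27 and 0.30. Probes of the same gene share a transcript and all probes of an array share its hybridisation. On PM2i-iPSC the median level was -6.42 for the 35 probes under 40% GC, -5.32 for 25 probes from 40% to under 50%, and -2.06 for 21 probes of 50% or more. On ES these medians were -6.51, -3.54 and -2.77. The correlation among these probes was lowest on MEF and highest on PM2i-iPSC.

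The promoters of these genes were CpG-rich, in cells where they were high and where they were low. RefSeq promoters (build GRCm38.p6) were found for 40 of the 57 genes, 50 promoters in all. In the 250 bases before the start site the median number of CpG was 15.5, against 6 in 32851 promoters of all genes, and the ratio of observed to expected CpG was 0.67 against 0.37. Taking the promoter with the most CpG for each gene, the median was 17.5 for 14 genes highest on MEF, 18 for 21 genes highest on a pluripotent array and 13 for 5 genes detected on none.

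The range within the MEF-high genes was wide, as a pair of them shows, with CpG in capitals. Dlx2 had 24 CpG and Lhx9 had 4, and both were among the genes that differed most between MEF and the pluripotent arrays.
Dlx2, chr2:71546755-71547004, minus strand: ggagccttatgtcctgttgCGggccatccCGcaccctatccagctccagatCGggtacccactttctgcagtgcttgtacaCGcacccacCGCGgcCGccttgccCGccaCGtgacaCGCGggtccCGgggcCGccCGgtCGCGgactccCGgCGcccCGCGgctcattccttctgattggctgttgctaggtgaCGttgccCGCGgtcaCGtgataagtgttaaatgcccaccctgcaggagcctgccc
Lhx9, chr1:138842445-138842694, minus strand: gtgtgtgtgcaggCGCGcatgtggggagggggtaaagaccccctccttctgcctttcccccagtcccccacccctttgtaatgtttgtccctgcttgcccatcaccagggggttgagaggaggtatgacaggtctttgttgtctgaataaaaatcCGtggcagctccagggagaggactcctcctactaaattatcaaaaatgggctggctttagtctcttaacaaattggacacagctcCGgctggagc
Both strands of these windows were searched for 4 motifs. The Gli site GACCACCCA, named for the effectors of Hedgehog signalling, was in none of the 50 promoters and in 0.225% of all promoters. At so low a share 50 promoters are too few to show a difference, so nothing is read from its absence. The TATA box TATAAA was in 6% against 12.4%, the homeodomain core TAATTA in 6% against 4.84%, and the E-box CACGTG, which the Dlx2 window holds, in 8% against 6.02%.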

How the data were processed

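Array intensity was deposited by the authors as scanner files, which Agilent's Feature Extraction wrote in version 9.5.3.1 for MEF and 10.7.3.1 otherwise, per the file headers. Gene names, probe sequences and mm7 coordinates came from the MEF file. Symbols were updated through the RefSeq table given. Control and outlier spots were left out. The processed signal was taken to log2, scaled to the array's 75th percentile (ES 3162, MEF 1877, PM2i-iPSC 3529, OM2i-iPSC 3426 signal units) and averaged over spots. A gene was read from its brightest probe over the 4 arrays. It entered a comparison when either array detected it, with bounds on folds for undetected or saturated sides. Counts used 2-fold and 4-fold.

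The replicate number of each group is 1, so no test was made. Members with a level of -3 or more where detected, the 8 widest per direction and comparison, and those with opposed probes are named with values, other members by detection calls or as chromosome neighbours, and cofactors by the 2 widest per direction. The members and lists were chosen with earlier results of these data known. Alternatives were quantile normalization and normexp (limma 3.58.1, R 4.3.3), median scaling, the deposited series table, the median over probes, a single floor and no background filter. The deposited table held the same intensity within 0.5% per spot. Counts cover all members, but 3 are not reported here by name. Counting was tested on simulated data. Work was done in Python 3.11.15 with pandas 2.3.3.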

Additional observations from a re-analysis of the deposited data

Results flagged for a closer look

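For the 2 genes below, the reprogrammed preparations lay on opposite sides of ES by at least 2-fold each, with 1 array per group, so the difference was not tested. Lhx4 differed from ES by 1.10 in PM2i-iPSC and by -1.82 in OM2i-iPSC on the log2 scale. Pitx3 differed by 1.39 in PM2i-iPSC and by -2.34 in OM2i-iPSC. Both differences of a gene share the ES array, and each gene has 1 probe with 1 spot.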

How the results depend on the processing

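No paired analysis was possible because each group has 1 array, and leaving out a replicate was not possible for the same reason. Taking the median over all probes of a gene turned Emx2 to -2.13 in PM2i-iPSC and -2.15 in OM2i-iPSC against MEF, Pax5 to 1.97 in PM2i-iPSC against MEF, and Lhx6 to -0.36 and Nkx2-6 to 1.80 in PM2i-iPSC against OM2i-iPSC. The same setting gave 20 members detected on PM2i-iPSC and member medians against MEF of -0.53 in ES, -0.70 in PM2i-iPSC and -0.16 in OM2i-iPSC. Scaling to the median gave -0.52, -0.75 and -0.20, and quantile normalization -0.29 for OM2i-iPSC. With no background filter the medians were 0.52 for ES and 0.80 for PM2i-iPSC, with 27 members higher in PM2i-iPSC than in MEF. Normexp left 2 members lower in PM2i-iPSC than in ES. Of the other values of named genes, 1119 stayed within the spread between spots and 411 moved by more without a change of sign at 2-fold. The 1119 include 227 from the deposited table, which holds the same signals, and 207 and 190 from the single floor and no filter. Where signals were processed anew, 122 moved and 105 stayed with median scaling. With normexp 103 moved and 124 stayed, and with quantile normalization 97 and 130. Faint genes are limited by the floors, which were higher on the pluripotent arrays.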
